A study of Mus musculus with 10 samples.

Results

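Signals of the chemokines and their receptors were compared between 5 shPC and 5 Ctrl tumors of M-Wnt cells. A gene was a member if its symbol in the probe annotation began with Ccl, Cxcl, Ccr, Cxcr, Xcl, Xcr or Ackr followed by a number, or with Cx3c. Of 19505 genes measured 60 were members, and these were 38 ligands, 18 signalling receptors and 4 atypical receptors. M-Wnt is a mammary cancer line of the mouse, and in both groups it had been transduced with a doxycycline-inducible shRNA against Pcx (the gene of pyruvate carboxylase, PC). Grafts of 50000 cells grew in the 4th mammary fat pad of female C57BL6J mice, which have an intact immune system. The shPC mice drank water with 150 µg/ml doxycycline and the Ctrl mice drank standard water, so the drug and the shRNA cannot be told apart in this comparison. The cancer cells alone carry the shRNA, and the RNA came from whole tumors, host cells included. Each tumor was measured on 1 Clariom S array, and its signals are given on a log2 scale.

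Chemokines are small secreted proteins that guide white blood cells along their gradients, and their receptors are G protein-coupled receptors that signal mainly through Gi proteins. One receptor often binds several ligands and one ligand several receptors. In tumors the ligands of CXCR3 and several CC chemokines are known for drawing T cells and NK cells, CCL2 for drawing monocytes, the ligands of CXCR2 for drawing neutrophils, and CCL17 and CCL22 for drawing regulatory and Th2 cells. Atypical receptors bind chemokines without the usual G protein signal and take them up.

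Some properties of the arrays bear on every value. Pcx, the target, had a log2 signal of 4.49 to 9.91 in the shPC tumors and 7.24 to 11.01 in the Ctrl tumors. It overlapped between the groups through shPC 1 and shPC 3 (difference -2.48, adjusted p = 0.378 from limma). The mean of 6 adipocyte genes was also highest there among the shPC tumors (12.25 and 11.27, against 6.16 to 7.15 in the others). Among the Ctrl tumors Ctrl 3 was highest for both (11.01 for Pcx and 13.24 for the adipocyte genes). Whether fat in the tumor contributed to the Pcx signal was not tested. The shPC 5 array stood apart from the others, with a median of 7.16 against 7.35 to 7.47 elsewhere. The lowest correlation of any 2 arrays was that of shPC 5 with Ctrl 1 (r = 0.960), and each of the other arrays had a lowest r of 0.966 to 0.978. The shPC 5 tumor was the lowest shPC tumor in 28 of the 60 members, so values without it are given beside results that rest on it. The mesenchymal genes listed for the cancer cells (Vim, Col1a1, Zeb1, Twist1, Fn1) had a mean of 14.96 to 15.19 in the shPC tumors and 14.68 to 14.98 in the Ctrl tumors.

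Most chemokine genes had lower signals in the shPC tumors than in the Ctrl tumors. Of the 60 members 44 had a negative difference (shPC minus Ctrl), with a median of -0.57 over the members and 0.04 over all genes. At an unadjusted p under 0.05 from limma 23 members (38.3%) were lower in the shPC tumors, against 6.25% of all genes tested, and 1 member (1.67%), Ccl25, was higher, against 7.80% of all genes. None of the 60 members reached an adjusted p under 0.05, and 0% of all genes did. The adjusted p of the 23 lower members lay between 0.148 and 0.346, so none of the differences below passed that threshold. With each array centred on its median, 21 members were lower and 2 higher, against 852 lower and 2180 higher among all genes (1219 and 1521 without centring).

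The ligands had the larger differences. Their median was -0.89, with 18 of 38 lower by the same rule and 1 higher, while the signalling receptors had a median of -0.45 with 4 of 18 lower and 0 higher. The signalling receptors were also dimmer, with means of 7.34 to 7.93 in the Ctrl tumors against 9.61 to 10.51 for the ligands. Dim signals can hide a difference. The median of the 4 atypical receptors was -0.26. Groups that did not overlap were found for 5 members, Cxcl9, Ccl3, Ccl4, Ccl7 and Xcl1, each with every shPC tumor below every Ctrl tumor (8.33% of members, against 1.79% of all genes), and for 0 members in the other direction (1.82% of all genes). With a tumor left out the count was 5 to 11, but the share of all genes was not taken there. Fewer tumors make a gap between the groups easier for any gene, so these counts say nothing particular about the members. In all 23 lower members the highest of the 10 tumors was a Ctrl tumor, and in 16 of them the lowest was shPC 5. Without shPC 5 the median over the members was -0.42. Then 21 of the 23 kept an unadjusted p under 0.05, with Ccl17 and Ackr3 lost, while 5.04% of all genes were lower.

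**Figure D1:**
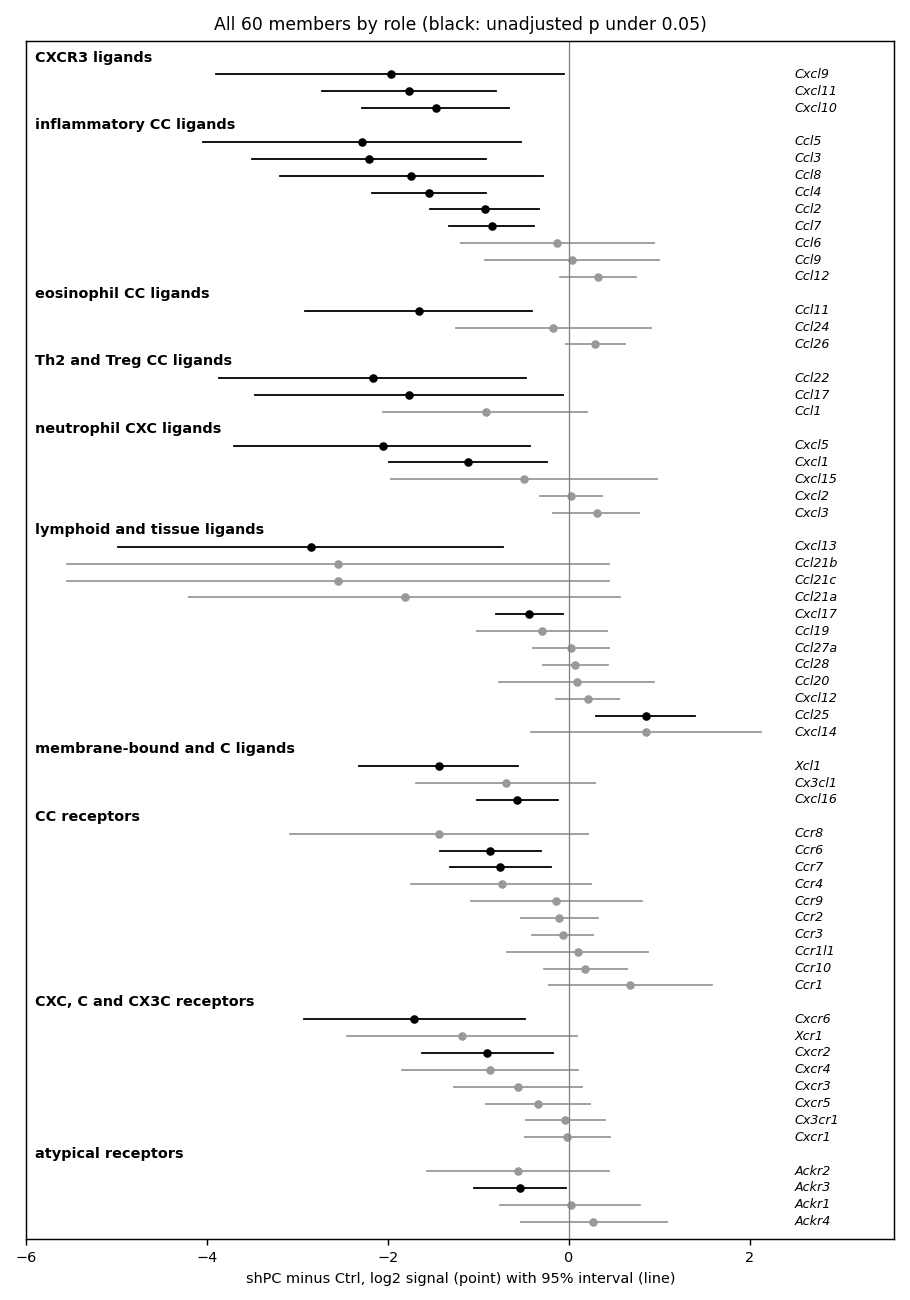
Difference in log2 signal, shPC minus Ctrl, of all 60 members grouped by role, with points for the difference, lines for its 95% interval and black for an unadjusted p under 0.05 (n = 5 tumors a group). The 23 black points left of 0 include all 3 CXCR3 ligands, and Ccl25 is the black point right of 0.

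Markers of leukocytes were lower in the same tumors. The mean of 6 genes of all leukocytes was 13.39 to 13.93 in the shPC tumors and 14.12 to 14.53 in the Ctrl tumors, with no overlap, and 6 of the 6 had negative differences, 5 of them at an unadjusted p under 0.05. T cell genes (5 measured) had means of 7.21 to 11.12 in the shPC tumors and 10.95 to 12.42 in the Ctrl tumors, and 4 of the 5 were lower at an unadjusted p under 0.05. NK cell genes (4 measured, 3 lower) had 6.10 to 8.70 in the shPC tumors and 8.71 to 10.02 in the Ctrl tumors. Neutrophil genes (4 measured, 3 lower) had 5.42 to 5.91 in the shPC tumors and 5.89 to 7.93 in the Ctrl tumors. B cell genes were at 4.85 to 5.55 in the shPC tumors and 5.42 to 6.94 in the Ctrl tumors, and 1 of 4 was lower. Conventional dendritic cell genes (4 measured, 1 lower) lay at 4.92 to 5.92 in the shPC tumors and 5.76 to 6.44 in the Ctrl tumors, and monocyte genes (3 measured, 1 lower) at 10.14 to 11.71 in the shPC tumors and 11.64 to 12.22 in the Ctrl tumors. Macrophage genes did not follow, with 14.87 to 15.55 in the shPC tumors and 15.09 to 15.28 in the Ctrl tumors, although Mrc1 was higher (0.83) and C1qa lower (-0.32). In whole tumors fewer cells of a type and less RNA per cell cannot be told apart.

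Markers of fat and epithelium had lower means too, with overlap between the groups. Adipocyte genes (0 of 6 lower at an unadjusted p under 0.05) had means of 6.16 to 12.25 in the shPC tumors and 9.08 to 13.24 in the Ctrl tumors, and genes of mammary epithelium (2 of 5 lower) had 4.74 to 7.65 in the shPC tumors and 6.66 to 9.43 in the Ctrl tumors. Lymph node genes (7 measured) had 4.45 to 4.93 in the shPC tumors and 4.73 to 5.61 in the Ctrl tumors. Of these, Glycam1 and Madcam1, which define vessels of lymph nodes, were below the 30th percentile on every array. Ms4a1, Cd79a and Cd79b are also in the B cell list, so the lymph node mean cannot be told apart from a B cell mean. With the leukocyte mean as a covariate 1 member, Cxcl17, was lower and the median over the members was 0.18 (1.53% of all genes lower). Since this mean does not overlap between the groups, it cannot be told apart from the group. With the lymph node mean 6 members were lower, Cxcl10, Cxcl11, Ccl3, Ccl4, Ccl7 and Cxcl17 (3.58% of all genes), and with the adipocyte mean 11 (4.01%). The part of these cells in the differences was not tested beyond that.

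**Figure D2:**
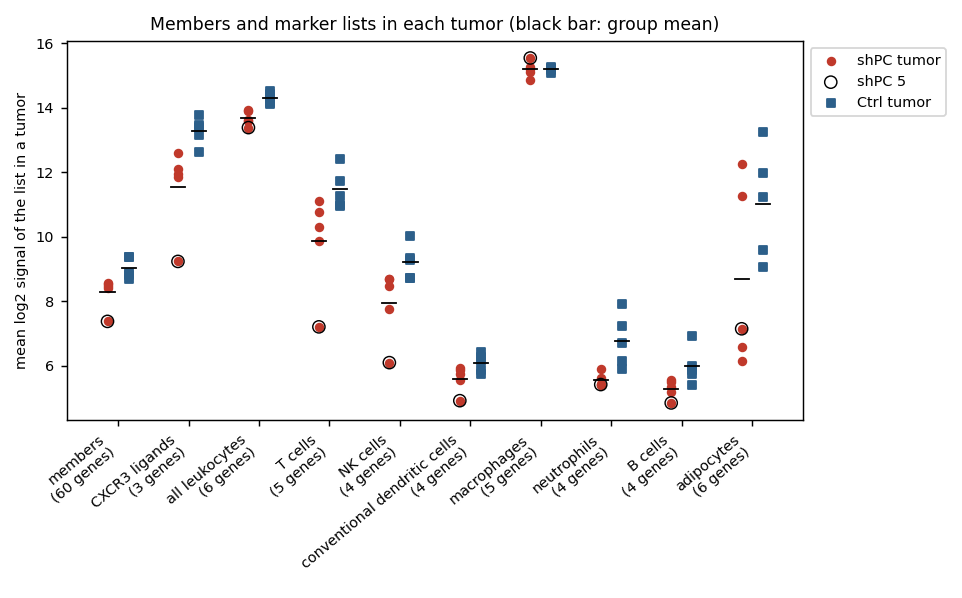
Mean log2 signal per tumor of the 60 members, the CXCR3 ligands and lists of marker genes, with red circles for shPC tumors, a ring for shPC 5, blue squares for Ctrl tumors and a black bar for the group mean. The 60 members had means of 7.38 to 8.57 in the shPC tumors, all below the 8.70 to 9.39 of the Ctrl tumors, as had the leukocyte genes, while macrophage genes overlap.

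The ligands of CXCR3 (Cxcl9, Cxcl10 and Cxcl11), which are induced by interferon gamma and draw activated T cells and NK cells, were all lower. In each list of values that follows the tumors stand in the order 1 to 5. Cxcl9 (Entrez Gene 17329) had log2 signals of 15.65, 16.19, 16.61, 16.41 and 11.13 in the shPC tumors, against 17.14, 17.39, 17.32, 17.21 and 16.80 in the Ctrl tumors. All shPC tumors lay below all Ctrl tumors, but shPC 5 lay far below the other 4, which were at 15.65 to 16.61. The difference was -1.97 with shPC 5 (standard error, SE, 0.88, unadjusted p = 0.0455 from limma, exact two-sided permutation p = 0.00794). Without shPC 5 it was -0.96 (unadjusted p = 0.000919 and adjusted p = 0.193 from limma). The unadjusted p was above 0.05 in 12 of 21 alternatives, among them the robust fit (0.0865), array weights (0.0602) and the methods' t-test (0.0928), and on leaving out shPC 1 or any 1 Ctrl tumor (0.0584 to 0.0770). Cxcl10 (Entrez Gene 15945) had 13.34, 12.98, 13.15, 13.87 and 11.63 in the shPC tumors, against 14.71, 14.70, 14.93, 14.16 and 13.83 in the Ctrl tumors. Only shPC 4 reached above the lowest Ctrl tumor, and the difference was -1.47 (SE 0.37, adjusted p = 0.194 from limma, exact two-sided permutation p = 0.0159), a signal 2.77 times higher in the Ctrl tumors if the scale is log2. Cxcl11 (Entrez Gene 56066) had 6.60, 6.70, 6.59, 7.50 and 4.95 in the shPC tumors, against 8.41, 8.34, 9.07, 8.09 and 7.27 in the Ctrl tumors. Again shPC 4 alone lay within the Ctrl range, and the difference of -1.77 (SE 0.44) had an adjusted p of 0.193 from limma and an exact permutation p of 0.0159.

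Cxcl10 has in its promoter a copy of the motif read by interferon-activated factors, and its sequence is shown for that reason. The 300 bases from 250 before to 50 after the start of the gene, from RefSeq on GRCm38.p6, read on the minus strand, lie at chr5:92348840-92349139. Capitals mark the match to GAAA, any 2 bases and GAAA (the core of the interferon-stimulated element), searched on both strands.
Cxcl10: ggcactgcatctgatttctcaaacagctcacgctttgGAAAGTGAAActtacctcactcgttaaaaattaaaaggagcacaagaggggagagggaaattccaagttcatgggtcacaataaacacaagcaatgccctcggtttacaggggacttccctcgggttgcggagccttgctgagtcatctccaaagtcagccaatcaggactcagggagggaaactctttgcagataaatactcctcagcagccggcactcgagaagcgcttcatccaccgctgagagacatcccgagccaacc
The match begins 213 bases before the start. Such a match was found in 3.44% of the 32851 promoters of the table, or 3.99% of the 27025 genes with a promoter there. By gene it was in 3 of the 45 members with a promoter there, Cxcl10, Ccl19 and Cxcl14. Of these genes only Cxcl10 was among the 23 lower members, 13 of which had a promoter in the table. The gamma-activated site TTCNNNGAA, the same on both strands, was in 8.30% of the promoters and 9.55% of the genes. By gene it was in 4 of the 45 members (the lower Ccl17 and Ccr6, and Ccr1l1 and Cxcl14). The match is a run of letters, and binding there was not measured.

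The inflammatory CC ligands split into 2 sets. Ccl2, Ccl3, Ccl4, Ccl5, Ccl7 and Ccl8 were lower, while Ccl6, Ccl9 and Ccl12 did not pass an unadjusted p of 0.05. Ccl4 (Entrez Gene 20303), which encodes MIP-1 beta and is made by activated T cells, NK cells and macrophages, had the smallest p of all members. Its signals were 8.26, 8.86, 8.93, 9.05 and 7.63 in the shPC tumors, against 9.45, 10.21, 10.50, 10.11 and 10.21 in the Ctrl tumors, with no overlap between the groups. The difference was -1.55 (SE 0.29, adjusted p = 0.148 from limma, exact permutation p = 0.00794, the smallest that splits of 10 tumors into groups of 5 allow). Its neighbour Ccl3 (Entrez Gene 20302), MIP-1 alpha, had 9.89, 11.38, 11.83, 11.91 and 8.54 in the shPC tumors, against 13.22, 12.38, 12.43, 13.34 and 13.23 in the Ctrl tumors. The groups were apart again, with shPC 5 and shPC 1 the lowest, and the difference was -2.21 (SE 0.59, adjusted p = 0.194 from limma, exact permutation p = 0.00794). Ccl5 (RANTES), a product of T cells and NK cells among others, had 11.86, 13.12, 13.87, 12.46 and 8.66 in the shPC tumors, against 14.43, 14.95, 14.84, 13.61 and 13.60 in the Ctrl tumors. Only shPC 3 lay within the Ctrl range, and the difference of -2.29 (SE 0.80) became -1.46 without shPC 5.

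Ccl2 and Ccl7, ligands of the monocyte receptor CCR2, were lower, and Ccl7 had a narrow spread in both groups. Ccl7 (Entrez Gene 20306) had 11.99, 12.16, 12.32, 11.51 and 11.63 in the shPC tumors, against 12.46, 13.35, 12.91, 12.55 and 12.58 in the Ctrl tumors. The groups did not overlap, and the difference was -0.85 (SE 0.22, adjusted p = 0.194 from limma, exact permutation p = 0.00794). Ccl2 (Entrez Gene 20296) had 12.95, 12.08, 12.21, 12.64 and 12.25 in the shPC tumors, against 13.51, 13.92, 13.85, 12.88 and 12.64 in the Ctrl tumors. Here shPC 1 lay within the Ctrl range and shPC 4 at its lower end, and the difference was -0.93 (SE 0.28, adjusted p = 0.218 from limma, exact permutation p = 0.0397). Ccl8, a ligand of mouse CCR8, had 13.32, 13.57, 14.38, 12.37 and 10.12 in the shPC tumors, against 14.54, 15.42, 14.42, 14.03 and 14.04 in the Ctrl tumors. The shPC 3 tumor lay among the Ctrl tumors and shPC 5 far below them, and the difference was -1.74 (SE 0.66), or -1.08 without shPC 5.

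The other 3 inflammatory CC ligands were not lower in the same tumors. Ccl12, a mouse ligand of CCR2, had 13.70 to 14.84 in the shPC tumors and 13.72 to 14.07 in the Ctrl tumors, a difference of 0.32 with a 95% interval of -0.10 to 0.74. Ccl6 and Ccl9, ligands of CCR1 found in mice and made by myeloid cells, had differences of -0.13 (interval -1.19 to 0.94) and 0.03 (interval -0.93 to 1.0). The intervals of Ccl6 and Ccl9 are wide, and Ctrl 2 was the highest tumor for both.

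Among the ligands of eosinophils and of Th2 and regulatory T cells, Ccl11, Ccl17 and Ccl22 were lower. Ccl11 (eotaxin), which draws eosinophils through CCR3, had 9.78, 8.57, 9.38, 9.01 and 7.98 in the shPC tumors, against 10.71, 12.42, 11.13, 8.93 and 9.85 in the Ctrl tumors. The groups overlapped through Ctrl 4, and the difference was -1.66 (SE 0.57). Ccl22, a ligand of CCR4 made by dendritic cells and macrophages, had 10.34, 11.20, 12.19, 10.40 and 7.30 in the shPC tumors, against 12.07, 13.57, 13.24, 11.75 and 11.65 in the Ctrl tumors. Only shPC 3 lay above the lowest Ctrl tumors, and the difference was -2.17 (SE 0.77), or -1.42 without shPC 5. Ccl17, the other ligand of CCR4, had 8.41, 9.13, 10.48, 9.0 and 5.52 in the shPC tumors, against 9.45, 11.79, 10.09, 9.89 and 10.16 in the Ctrl tumors. Only Ctrl 2 lay above shPC 3, and the difference of -1.77 (SE 0.78) was -1.02 without shPC 5, with an unadjusted p of 0.0676 from limma, and 13 of 21 alternatives put it above 0.05.

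The remaining ligands of these groups did not pass an unadjusted p of 0.05. Ccl1, a ligand of CCR8, had a difference of -0.92 (interval -2.05 to 0.20). Ccl24 and Ccl26, the other eotaxins, had -0.17 and 0.29, and Ccl24 was above the 30th percentile of the array in 2 of 10 tumors, so it was measured near the dim end.

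The ligands of CXCR2, which draw neutrophils, did not move together, although they lie side by side on chromosome 5. Cxcl5 and Cxcl1 were lower, Cxcl3 was not, and Cxcl2 was too dim to compare. Cxcl5 had 5.37, 4.41, 5.31, 5.94 and 4.57 in the shPC tumors, against 6.51, 10.21, 7.11, 6.91 and 5.18 in the Ctrl tumors. Only Ctrl 5 lay below the highest shPC tumors, Ctrl 2 stood well above the other Ctrl tumors, and the difference was -2.06 (SE 0.74). Cxcl1 (KC) had 5.71, 4.99, 4.91, 5.46 and 5.44 in the shPC tumors, against 5.83, 7.25, 7.67, 5.63 and 5.71 in the Ctrl tumors. Ctrl 2 and Ctrl 3 lay well above the rest, while the other 3 Ctrl tumors had 5.63 to 5.83, and the difference was -1.12 (SE 0.40). Cxcl2 (MIP-2) had 2.71, 2.87, 2.90, 2.90 and 3.30 in the shPC tumors, against 2.81, 3.05, 3.11, 2.56 and 3.04 in the Ctrl tumors, all below the 30th percentile of their array. No difference can be read from signals this dim (0.02, interval -0.32 to 0.37). Cxcl3 had a difference of 0.31 (interval -0.17 to 0.78), and Cxcl15, known as lungkine in mice, one of -0.50 with Ctrl 3 and shPC 3 well above the rest.

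The promoters of Cxcl1, Cxcl2 and Cxcl3 are shown because they share a kappaB motif at a like distance from the start. Of the genes, Cxcl1 was lower, Cxcl3 was not and Cxcl2 was too dim to compare. Each promoter is 300 bases of the plus strand from RefSeq on GRCm38.p6, 250 before to 50 after the start. Capitals mark matches on either strand to GGG, any 2 bases and TTTCC.
Cxcl1 (chr5:90890995-90891294): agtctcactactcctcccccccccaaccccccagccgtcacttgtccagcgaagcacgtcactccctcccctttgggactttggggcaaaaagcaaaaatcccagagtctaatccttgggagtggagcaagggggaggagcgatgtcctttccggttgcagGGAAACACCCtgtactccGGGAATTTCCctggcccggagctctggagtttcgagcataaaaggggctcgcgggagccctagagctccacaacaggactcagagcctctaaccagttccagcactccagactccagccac
Cxcl2 (chr5:90903649-90903948): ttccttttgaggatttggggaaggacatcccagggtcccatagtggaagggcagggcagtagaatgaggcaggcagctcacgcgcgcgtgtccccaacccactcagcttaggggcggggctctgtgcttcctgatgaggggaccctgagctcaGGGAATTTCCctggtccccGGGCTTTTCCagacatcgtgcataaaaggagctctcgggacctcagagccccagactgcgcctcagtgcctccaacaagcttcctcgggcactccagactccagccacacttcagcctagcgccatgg
Cxcl3 (chr5:90785851-90786150): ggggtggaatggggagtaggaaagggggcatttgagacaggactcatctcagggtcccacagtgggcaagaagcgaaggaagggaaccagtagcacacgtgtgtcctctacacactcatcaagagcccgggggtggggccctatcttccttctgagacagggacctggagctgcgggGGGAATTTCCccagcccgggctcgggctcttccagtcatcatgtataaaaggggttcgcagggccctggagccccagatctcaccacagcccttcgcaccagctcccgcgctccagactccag
The run GGGAATTTCC stands in all 3, beginning 71 bases before the start in Cxcl1, 97 in Cxcl2 and 73 in Cxcl3. Cxcl1 and Cxcl2 each have another match to the motif. This form of the motif was found in 1.63% of all promoters, or 1.89% of the genes with a promoter. By gene it was in 6 of the 45 members with one, Cxcl1, Cxcl2, Cxcl3, Ccl20, Ccl9 and Ccr3. Of these Cxcl1 alone was among the lower members. Other forms of a kappaB site were not searched, so a member without this match may still have one. The letters are a description and no measure of the factor.

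The ligands of lymphoid and other tissues were mixed, with 2 of 12 lower and 1 higher. Cxcl13, which draws B cells through CXCR5, had the most negative difference of the 60 members. Its signals were 12.18, 14.25, 14.42, 12.42 and 8.24 in the shPC tumors, against 15.42, 15.93, 14.95, 14.40 and 15.07 in the Ctrl tumors. Only shPC 3 lay above the lowest Ctrl tumor (Ctrl 4, 14.40), and the difference was -2.85 (SE 0.97), or -1.84 without shPC 5. Cxcl17, a chemokine of mucosal tissues, had 4.59, 3.96, 3.95, 4.16 and 4.17 in the shPC tumors, against 4.79, 4.31, 4.45, 4.53 and 4.93 in the Ctrl tumors. These are dim signals, with shPC 1 among the Ctrl tumors, and the difference was -0.44 (SE 0.17). Ccl25, which guides T cells to gut and thymus through CCR9, was the one member that was higher (Entrez Gene 20300). It had 9.0, 9.38, 8.62, 9.23 and 9.81 in the shPC tumors, against 8.43, 8.40, 7.72, 8.89 and 8.35 in the Ctrl tumors. Only shPC 3 lay below the highest Ctrl tumor, and the difference was 0.85 (SE 0.25, adjusted p = 0.218 from limma, exact permutation p = 0.0159).

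The ligands of CCR7, which guide T cells and dendritic cells in lymph nodes, varied widely between tumors of the same group. Ccl21a had 9.17, 10.78, 7.42, 12.99 and 6.56 in the shPC tumors, against 11.43, 10.95, 12.93, 11.19 and 9.48 in the Ctrl tumors. The shPC 4 tumor was the highest of all 10 and shPC 5 the lowest, and the difference of -1.81 (SE 1.09) was within this spread. It was -1.11 without shPC 5 and -2.71 without shPC 4 (unadjusted p = 0.0102 from limma), and without shPC 4 Ccl21a, Ccl21b and Ccl21c all had an unadjusted p under 0.05. Ccl21b and Ccl21c are near-identical copies with equal values in every tumor and cannot be told apart (difference -2.55, interval -5.55 to 0.44, and -1.50 without shPC 5). Ccl19 had 5.77, 5.78, 5.38, 4.76 and 5.08 in the shPC tumors, against 4.76, 6.69, 5.77, 5.41 and 5.65 in the Ctrl tumors. Its groups overlapped almost wholly (-0.30, interval -1.02 to 0.42). Cxcl12, the ligand of CXCR4 that stromal cells make, had 15.29, 15.48, 15.01, 15.21 and 15.68 in the shPC tumors, against 14.86, 15.25, 15.32, 14.97 and 15.24 in the Ctrl tumors, a difference of 0.21 (interval -0.14 to 0.56). Ccl20, Ccl27a, Ccl28 and Cxcl14, which act at skin and mucosa, had differences of 0.09, 0.02, 0.07 and 0.85, and that of Cxcl14 had an interval of -0.42 to 2.12.

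Of the ligands with other structures, Xcl1 and Cxcl16 were lower. Xcl1 (lymphotactin, Entrez Gene 16963), which activated T cells and NK cells make and which draws cross-presenting dendritic cells, had 7.67, 7.62, 7.98, 7.68 and 6.09 in the shPC tumors, against 8.67, 9.90, 8.54, 8.01 and 9.12 in the Ctrl tumors. No shPC tumor reached a Ctrl tumor, and the difference was -1.44 (SE 0.40, adjusted p = 0.198 from limma, exact permutation p = 0.00794). Cxcl16, a membrane-bound ligand of CXCR6, had 15.56, 16.10, 16.05, 15.85 and 15.08 in the shPC tumors, against 16.20, 16.33, 16.63, 16.28 and 16.04 in the Ctrl tumors. The groups overlapped by a narrow margin, with a difference of -0.57 (SE 0.21). Cx3cl1 (fractalkine), the other membrane-bound ligand, had 11.48, 12.33, 13.01, 12.41 and 10.06 in the shPC tumors, against 12.26, 12.86, 12.36, 12.67 and 12.63 in the Ctrl tumors. Here shPC 3 was the highest of all tumors, and the difference was -0.70 (interval -1.69 to 0.29) with shPC 5 and -0.25 without it.

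**Figure D3:**
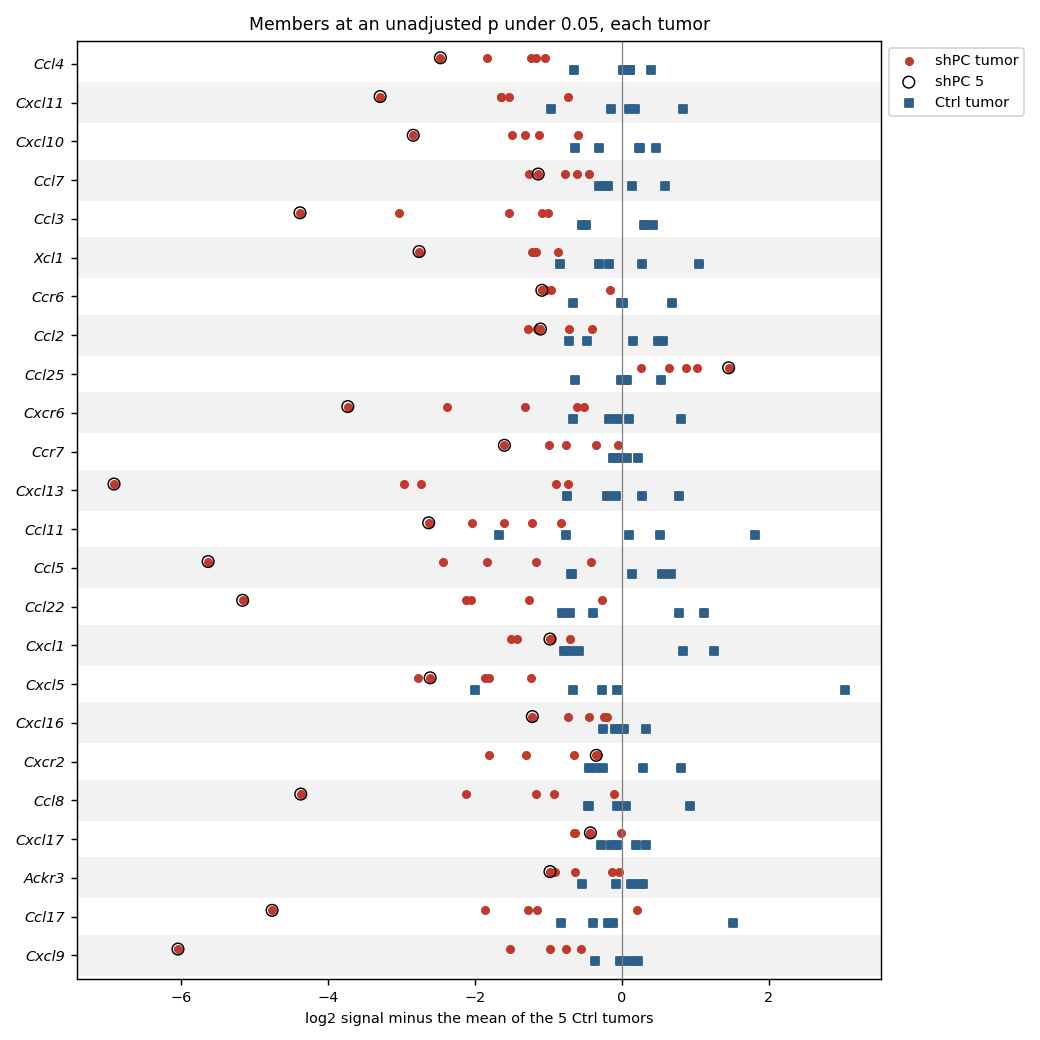
Log2 signal of each tumor minus the mean of the 5 Ctrl tumors for the 23 lower members and Ccl25 (unadjusted p under 0.05), ordered by p from the top, with red circles for shPC tumors, a ring for shPC 5 and blue squares for Ctrl tumors. The red circles lie left of the blue squares with no overlap for Cxcl9, Ccl3, Ccl4, Ccl7 and Xcl1, and shPC 5 is the leftmost point in 16 of the 23 lower members.

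Among the receptors Cxcr6, Ccr6, Ccr7 and Cxcr2 were lower. Cxcr6 (Entrez Gene 80901), found on effector and memory T cells and NKT cells, had 7.29, 9.15, 9.06, 8.35 and 5.94 in the shPC tumors, against 9.76, 9.62, 10.47, 9.49 and 9.0 in the Ctrl tumors. The shPC 2 and shPC 3 tumors lay just above Ctrl 5, and the difference was -1.71 (SE 0.56, adjusted p = 0.240 from limma, exact permutation p = 0.0238). Ccr6 (Entrez Gene 12458), the receptor of CCL20 on B cells, Th17 cells and dendritic cells, had 4.22, 5.14, 4.28, 4.35 and 4.22 in the shPC tumors, against 4.64, 5.99, 5.31, 5.30 and 5.32 in the Ctrl tumors. Only shPC 2 stood within the Ctrl range, and the difference was -0.87 (SE 0.25, adjusted p = 0.215 from limma, exact permutation p = 0.0159). Apart from shPC 2, the shPC signals of Ccr6 were dim, close to the 30th percentile of their arrays (4.07 to 4.12). Ccr7, the receptor of naive T cells and migrating dendritic cells, had 11.36, 10.96, 11.67, 10.72 and 10.12 in the shPC tumors, against 11.61, 11.94, 11.79, 11.68 and 11.60 in the Ctrl tumors. Only shPC 3 lay within the narrow Ctrl range, and the difference was -0.76 (SE 0.25). Cxcr2, the receptor of neutrophils, had 5.44, 5.13, 4.47, 3.97 and 5.43 in the shPC tumors, against 5.52, 6.58, 6.06, 5.33 and 5.43 in the Ctrl tumors. The shPC 1 and shPC 5 tumors lay among the Ctrl tumors and the difference was -0.90 (SE 0.33, exact permutation p = 0.0556). These are dim signals, and shPC 4 was below the 30th percentile of its array (4.07).

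Receptors of T cells and dendritic cells that did not pass an unadjusted p of 0.05 still had negative differences. Cxcr3, the receptor of Cxcl9, Cxcl10 and Cxcl11, had 9.20, 9.13, 9.45, 7.94 and 8.11 in the shPC tumors, against 9.47, 9.53, 9.83, 9.04 and 8.77 in the Ctrl tumors. The groups overlapped, with shPC 4 and shPC 5 below all Ctrl tumors (-0.56, interval -1.27 to 0.14). Cxcr4, found on most leukocytes, had 10.38, 11.50, 11.97, 11.11 and 9.83 in the shPC tumors, against 12.20, 12.22, 12.61, 11.33 and 10.78 in the Ctrl tumors, a difference of -0.87 (interval -1.84 to 0.10). Xcr1, the receptor of cross-presenting dendritic cells, had 7.86, 9.43, 8.86, 8.78 and 5.86 in the shPC tumors, against 9.61, 8.52, 9.25, 10.01 and 9.30 in the Ctrl tumors. It was lowest in shPC 5 and shPC 1, and the other 3 shPC tumors lay among the Ctrl tumors (-1.18, interval -2.45 to 0.09, and -0.61 without shPC 5). Cxcr5, the receptor of Cxcl13, had dim signals of 4.36, 4.36, 4.80, 3.74 and 4.05 in the shPC tumors, against 3.92, 4.58, 5.20, 4.35 and 4.98 in the Ctrl tumors (-0.34, interval -0.92 to 0.23). Ccr4 and Ccr8, receptors of Th2 and regulatory T cells, had -0.74 and -1.44, or -0.41 and -0.63 without shPC 5, whose Ccr8 signal was 4.11 beside 7.74 to 8.60 in shPC 1 to 4.

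The receptors of monocytes and macrophages did not follow. Ccr2, which brings monocytes into tissue, had 13.80, 13.02, 13.34, 13.49 and 13.59 in the shPC tumors, against 13.17, 14.03, 13.71, 13.49 and 13.38 in the Ctrl tumors. The groups lay on top of each other (-0.11, interval -0.53 to 0.32). Cx3cr1, found on macrophages and patrolling monocytes, had 11.53, 11.75, 11.59, 11.22 and 12.09 in the shPC tumors, against 11.67, 11.13, 11.96, 11.79 and 11.81 in the Ctrl tumors, with a difference of -0.04 (interval -0.47 to 0.40) that was 0.06 with the arrays centred. Ccr1 had the most positive difference of the receptors, 0.68 (interval -0.22 to 1.58), and shPC 5 was its highest tumor with 12.34. Without that tumor the difference was 0.30, beside 0.29 for Ccr9. Ccr3, the receptor of eosinophils, had -0.07, Ccr9, a receptor of gut-homing T cells, -0.14, and Ccr1l1 0.10. Ccr10 and Cxcr1 were below the 30th percentile on every array.

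Of the atypical receptors Ackr3, which takes up CXCL12, had 9.87, 10.47, 9.60, 10.38 and 9.53 in the shPC tumors, against 10.63, 10.80, 10.43, 10.75 and 9.96 in the Ctrl tumors. Here shPC 2 and shPC 4 lay among the Ctrl tumors, and the difference of -0.54 (SE 0.23) was -0.43 without shPC 5, with an unadjusted p of 0.0923 from limma, and 12 of 21 alternatives put it above 0.05. Ackr1, which carries chemokines across endothelium, had a difference of 0.02, Ackr2, which clears inflammatory CC chemokines, one of -0.56, and Ackr4, which clears the ligands of CCR7, one of 0.27 from signals that passed the 30th percentile in 2 tumors.

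To see whether a ligand and its receptor differed by unequal amounts, the ligand signal minus the receptor signal was taken in each tumor and compared between shPC and Ctrl tumors. Of 35 known pairs 32 were compared (30 ligands, 17 receptors), and 3 with a receptor not analysed here were left out. Both partners were lower in 19 pairs, the ligand alone in 3, the receptor alone in 7 and neither in 3, counted by the sign of the difference. In 12 pairs the exact two-sided permutation p was under 0.05, and in 8 of these the ligand had the more negative difference. None of the 32 pairs had an adjusted p under 0.05, the smallest being 0.0726. With a tumor left out fewer splits remain, so the same rank among them gives a larger p.

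In the monocyte pairs Ccl2 and Ccl7 were lower, while Ccl12 and the receptor Ccr2 were not. Ccl2 minus Ccr2 differed by -0.83 (interval -1.36 to -0.30, exact permutation p = 0.00794, adjusted over the pairs p = 0.0726) and Ccl7 minus Ccr2 by -0.74 (interval -1.31 to -0.17, exact permutation p = 0.0159). Ccl12, the third ligand of this receptor measured, gave 0.43 (interval -0.24 to 1.10). With Ccr1 the differences were -1.53 for Ccl7, -2.89 for Ccl3 and -2.97 for Ccl5 (exact permutation p = 0.00794, 0.0159 and 0.0159), and without shPC 5 they were -1.07, -1.97 and -1.76. Ccl9, which was not lower itself, gave -0.65 with Ccr1 (interval -1.58 to 0.29, exact permutation p = 0.159).

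In the pairs of T cells, B cells and dendritic cells no single pattern held. Against Cxcr3, Cxcl10 and Cxcl11 were lower by unequal amounts (-0.91 and -1.21, exact permutation p = 0.0476 for each and adjusted p = 0.127), while Cxcl9 gave -1.41 with an interval of -3.54 to 0.72. Without shPC 5 the differences of Cxcl10 and Cxcl11 were -0.73 and -0.99, each with an exact permutation p of 0.0952, and that of Cxcl9 was -0.56. The unadjusted p of the Cxcl10 pair and that of the Cxcl11 pair were each above 0.05 on leaving out any 1 tumor other than shPC 4. With fewer splits the p can rise by itself, so this does not show that the pairs rest on certain tumors. Cxcl13 minus Cxcr5 differed by -2.51 (exact permutation p = 0.0159), and by -1.55 without shPC 5 (p = 0.0317). In the pair Cxcl16 and Cxcr6 the receptor had the more negative difference (1.14 for ligand minus receptor, interval 0.12 to 2.17, exact permutation p = 0.0238). Xcl1 minus Xcr1 differed by -0.26 with an interval of -1.78 to 1.26, wide enough to hold a large gap either way, and by -0.50 without shPC 5.

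In the neutrophil pairs Cxcr2, itself dim, was lower while some of its ligands were not. Cxcl3 minus Cxcr2 differed by 1.20 (interval 0.41 to 2.0, exact permutation p = 0.00794) and Cxcl2 minus Cxcr2 by 0.92 (exact permutation p = 0.0238), with Cxcl2 too dim to read. Cxcl1 and Cxcl5 minus Cxcr2 gave -0.22 (interval -1.10 to 0.66) and -1.17 (interval -3.07 to 0.73). For Cxcl12 the difference from Ackr3 was 0.75 (exact permutation p = 0.0397). Without shPC 5 it was 0.55, with an exact permutation p of 0.0794 from fewer splits. The difference from Cxcr4 was 1.08 (interval -0.27 to 2.42, exact permutation p = 0.119), and 0.71 without shPC 5.

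**Figure D4:**
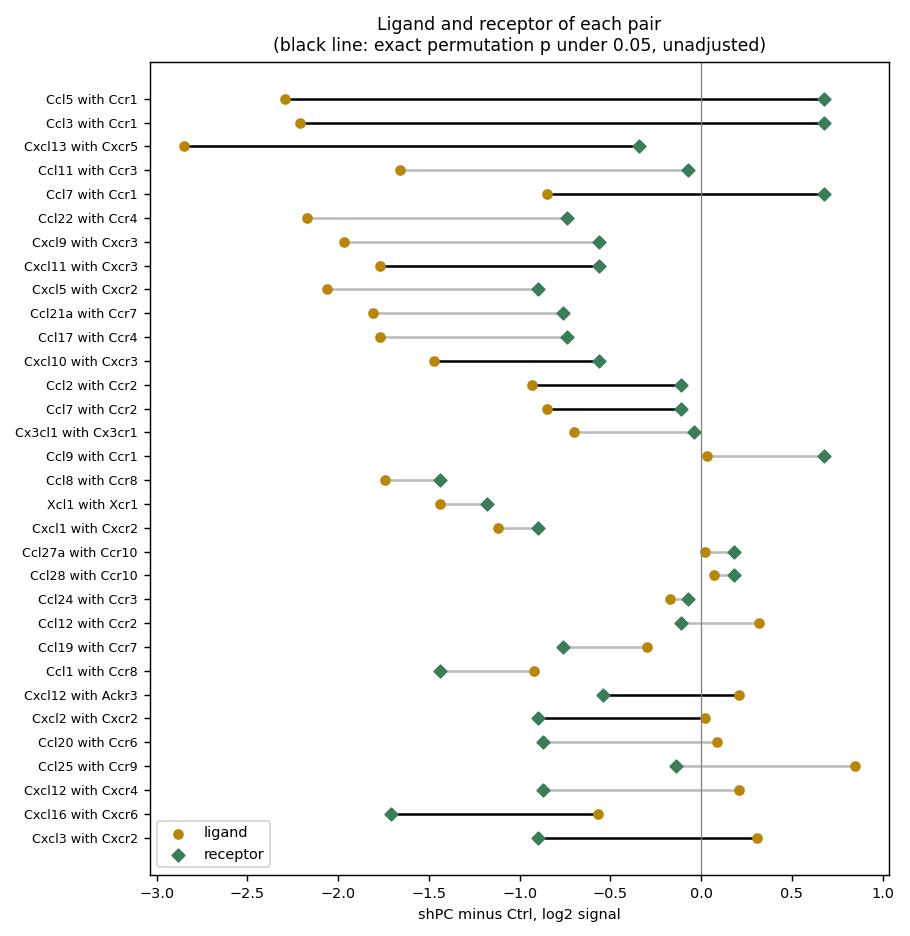
Differences in log2 signal, shPC minus Ctrl, of the ligand (gold circle) and the receptor (green diamond) of each of the 32 pairs, joined by a line that is black where the exact permutation p of ligand minus receptor was under 0.05. Gold lies left of green in 22 pairs, and in the pairs with Ccr1 the diamond stands at 0.68.

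Chemokine genes lie in clusters that arose by duplication, and neighbours were set side by side in the order RefSeq gives on GRCm38.p6. On chromosome 5 Cxcl9, Cxcl10 and Cxcl11 stand together and all 3 were lower (-1.97, -1.47 and -1.77). In the other chromosome 5 group Cxcl5 and Cxcl1 were lower (-2.06 and -1.12), with Cxcl3 and Cxcl15 between them (0.31 and -0.50) and Cxcl2 after them (0.02). On chromosome 11 Ccl12 (0.32) lies between Ccl11 (-1.66) and Ccl8 (-1.74). On chromosome 8 Cx3cl1 (-0.70) lies between Ccl22 and Ccl17 (-2.17 and -1.77), which were lower. In the Ccl5 group, on chromosome 11 as well, Ccl9 and Ccl6 (0.03 and -0.13) lie between Ccl5 (-2.29) and Ccl3 and Ccl4 (-2.21 and -1.55). Of the 7 receptor genes on chromosome 9, Cxcr6 (-1.71) was lower, and its neighbours on either side, Ccr9 and Xcr1, had -0.14 and -1.18.

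**Figure D5:**
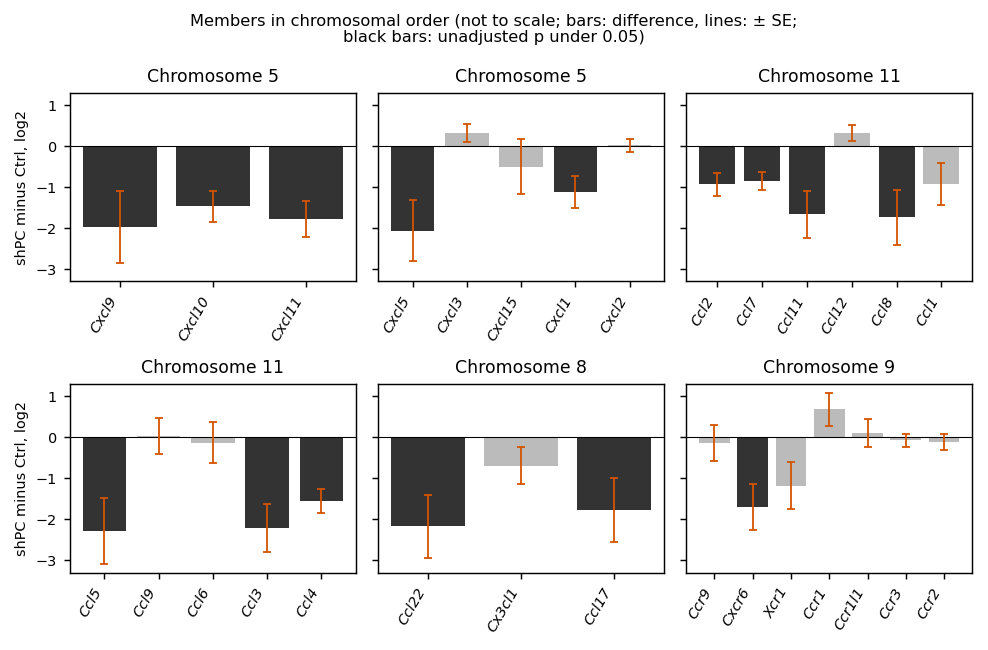
Difference in log2 signal, shPC minus Ctrl (bars, with lines for ± SE and black for an unadjusted p under 0.05), of members in their order along mouse chromosomes 5, 11, 8 and 9, not to scale. Ccl12 and the pair Ccl9 and Ccl6 stand near or above 0 between black bars.

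Other genes of the route were looked at from fixed lists. Among the inducers of chemokines, Ifng had 5.92, 6.78, 7.19, 7.74 and 5.55 in the shPC tumors, against 8.77, 9.0, 9.30, 8.85 and 9.20 in the Ctrl tumors. Its groups were well apart, with a difference of -2.39 (SE 0.36, adjusted p = 0.106 from limma). Irf1, a factor that interferon gamma induces, had -0.76, Tnf -1.26, Il1b -1.12 and Rela, a subunit of NF-kappaB, -0.18, and 3 of these 5 genes (Ifng, Irf1, Tnf) were lower at an unadjusted p under 0.05. Of 6 related ligands and receptors with other symbols 2 were lower, Gpr35 (-1.10), an orphan receptor of leukocytes, and Ccrl2 (-0.93), which binds chemerin. Pf4, the platelet chemokine, had 0.14.

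Downstream of the receptors 5 of 14 signal genes were lower and 0 higher, led by Rac2 (-0.88), the Rac GTPase of blood cells, while Gnai2 and Gnb1, G protein subunits of most cells, had 0.22 and 0.19. The others that were lower were Gng2, Plcb2, Dock2 and Arhgdib (-0.50, -0.62, -0.49 and -0.39). Of 6 genes that switch receptors off, Grk3 (-1.07) and Rgs16 (-0.82) were lower, and of 3 proteases that trim chemokines Dpp4 (-0.78) was lower. The median of all genes was 0.04, and the medians of the lists were -1.12 for inducers, -0.16 for signal genes, -0.49 for genes that switch receptors off and -0.78 for proteases.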

How the data were processed

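RNA of 10 whole tumors (5 shPC, 5 Ctrl) was measured on Clariom S mouse arrays after WT PLUS labelling, with quality control by the authors in Transcriptome Analysis Console. The values the authors deposited are taken as log2 signals, since they are decimals with like quartiles in every array. The base is not certain, because array maxima of 19.04 to 19.19 exceed what a 16-bit scanner allows, and how the arrays were normalized is not stated in these sources. The table held 22206 probe sets, of which 19572 named 1 gene and 2634 were not listed in the annotation. The probe set with the highest mean stood for a gene (55 genes had several), which left 19505 genes. The number of arrays limits the precision.

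Groups were compared with limma 3.58.1 in R 4.3.3 (shPC minus Ctrl, all genes, Benjamini-Hochberg adjustment, threshold 0.05). Ligand minus receptor was compared by an exact two-sided permutation test over every split of the 10 tumors (5 and 5, Python 3.11.15), adjusted over the 32 pairs. The p-values reflect the spread among the tumors. Values in each tumor are given for chosen pairs and for every member at an unadjusted p under 0.05, and full statistics for the 10 members with the smallest p. Promoters came from the RefSeq table (45 of 60 members matched). The members and lists were chosen with earlier results of these data known. The fit was checked on simulated data. Alternatives were quantile normalization, centred arrays, a filter at the 30th percentile in at least 5 arrays, the methods' t-test, a robust fit with a variance trend (statmod 1.5.0), weighted arrays, averaged probe sets, a block for replicate number, marker means as covariates and leaving out each tumor.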

Additional observations from a re-analysis of the deposited data

Results flagged for a closer look

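In 6 of 120 groups of 5 tumors (60 members in shPC and in Ctrl) 1 tumor lay apart from the other 4 by more than Dixon's critical value of 0.71 of the range, and about 1 in 20 groups is expected to do so by chance. Of these, 3 were shPC 5 as the lowest shPC tumor. Cxcl9 was at 11.13 there against 15.65 to 16.61 in the other shPC tumors, Xcl1 at 6.09 against 7.62 to 7.98, and Ccr8 at 4.11 against 7.74 to 8.60. Ccr6 was highest in shPC 2 with 5.14, where the other shPC tumors had 4.22 to 4.35. Among the Ctrl tumors Ccl9 was highest in Ctrl 2 with 15.17, against 13.07 to 13.58 in the others, and Cxcl15 in Ctrl 3 with 7.15, against 3.62 to 4.19.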

How the results depend on the processing

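No alternative gave a member an adjusted p under 0.05. At an unadjusted p under 0.05 the 23 lower members (against 6.25% of all genes) became 6 with lymph node genes as a covariate (3.58% of all genes). With leukocyte genes they became 1 (1.53%) and with adipocyte genes 11 (4.01%). When each tumor was left out in turn they numbered 19 to 25 (4.9% to 6.86% of all genes). The 1 member higher (against 1521 of all 19505 genes) became 2 with quantile normalization (Ccl26 and Ccl25, 1538 of all genes), centred arrays (2180) or the methods' t-test (1613). That t-test gave 19 lower members, against 5.36% of all genes. Higher members were 0 with lymph node genes (658 of all genes), 2 with leukocyte genes (Ccl22 and Cxcr4, 317) and 3 with adipocyte genes (929). With a tumor left out they numbered 1 to 3 (1121 to 1702 of all genes). Groups apart numbered 5 to 11 with shPC below and 0 to 1 with shPC above when a tumor was left out, with no share of all genes taken. The median over members was -0.76 to -0.42 with a tumor left out and 0.18 with the leukocyte covariate, which also turned the sign of Cxcl9 (1.35), Ccl5 (1.62), Ccl8 (1.17), Ccl11 (0.08), Ccl17 (1.36), Ccl22 (1.71), Cxcl2 (-0.02), Ccl19 (0.38), Ccl21a (0.46), Ccl25 (-0.02), Cxcl13 (1.49), Cxcl16 (0.35), Cx3cl1 (0.93), Ccr7 (0.10), Cxcr3 (0.79), Cxcr4 (1.41), Cxcr5 (0.26), Cxcr6 (1.08) and Xcr1 (0.56). The covariate and the group cannot be told apart there. Lymph node genes turned Ccl19 (0.42), Ccr2 (0.07) and Cxcr5 (0.02). Cx3cr1 turned with centred arrays (0.06) and with adipocyte genes (0.01). With a tumor left out the differences near 0 spanned -0.17 to 0.07 for Cx3cr1, -0.20 to 0.01 for Ccr2 and -0.07 to 0.08 for Cxcl2. The cause was not tested. Centring moved the median of all genes to 0.135. The other 848 values for single members or pairs kept their direction and stayed at an adjusted p of 0.05 or more. By the unadjusted p 136 of all 878 such values changed side of 0.05. Among the members these were most often values of Ccl17 (13 of 21), Cxcl9 and Ackr3 (12 each). Among the pairs they were most often those of Cxcl10 and Cxcl11 with Cxcr3 (10 of 12 each).

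Pairs at an unadjusted p under 0.05 numbered 12, and 9 to 13 over fewer splits with a tumor left out. With the replicate number as a block 27 members were lower, against 7.51% of all genes. There 0 pairs passed, since sign flips over 5 pairs cannot give a p under 0.0625. Same-numbered tumors did not deviate together throughout (r = 0.0441, 0.109, 0.281, 0.0739 and 0.0910), and only shPC 3 correlated best with its own number, so the numbers were not taken as pairs.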
